A study of Schizosaccharomyces pombe with 8 samples.

Results

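The 9 genes described here are 7 members of the hexose transporter family of fission yeast and 2 classical glucose-repressed genes. The transporters are ght1 (SPCC548.07c), ght2 (SPBC4B4.08), ght3 (SPAC1F8.01), ght4 (SPBC1683.08), ght5 (SPCC1235.14), ght6 (SPCC1235.13) and ght8 (SPCC548.06c), and the other 2 are fbp1 (SPBC1198.14c) and inv1 (SPCC191.11). They were taken by gene ID from a table of 7000 IDs, all 9 were found in it, and all 9 passed the filter on low counts that left 6243 genes for testing. ght6 passed it only through libraries of mutant strains. Schizosaccharomyces pombe carries its sugar transporters as a family of related membrane proteins that bring glucose, fructose or gluconate into the cell. When glucose is plentiful, a cAMP and protein kinase A pathway and the zinc-finger repressor Scr1 hold down genes for other carbon sources, and these genes are released when glucose runs low. The libraries came from cultures in YES, a rich medium that contains glucose, at an optical density of 0.5.

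Ribosomal RNA-depleted total RNA was sequenced from 4 strains with 2 libraries each. Every strain was h- and carried Rpb3-3HA, an epitope-tagged subunit of RNA polymerase II, linked to a hphMX6 marker. The wild type (WT) had the normal rpb1, which encodes the largest subunit and its C-terminal domain (CTD), a run of repeated heptads that is phosphorylated during transcription. The other strains carried rpb1 S2A::kanMX6 (serine 2 of the repeats to alanine), rpb1 S7A::kanMX6 (serine 7 to alanine) or rpb1 Y1F::kanMX6 (tyrosine 1 to phenylalanine). WT lacked the kanMX6 marker, so marker and substitution cannot be told apart. Nothing in the labels tells whether a strain's 2 libraries were grown as separate cultures. The p-values therefore measure only the spread between these libraries, which may be technical.

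Total counts per library ran from 13391705 to 23081870. Values are in CPM, the depth-scaled count after TMM scaling. rpb1 itself had 720.2 and 691 CPM in the WT libraries, and both libraries of every mutant lay between 377 and 449.6 CPM (log2 change -0.88 in S2A, -0.88 in S7A and -0.65 in Y1F, all called lower). Changes are log2 fold changes ± SE from edgeR's quasi-likelihood test with Benjamini-Hochberg adjustment over all genes tested, called at an adjusted p under 0.05. In cultures measured in bulk, fewer cells with a transcript and less of it per cell cannot be told apart. The 3 comparisons with WT share the 2 WT libraries.

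The 9 transcripts spanned a wide range of levels. Set per kilobase of annotated transcript, WT held ght8 at 365 CPM per kb, above 93.7% of the protein-coding genes tested, then ght2 at 61.6 and ght5 at 27.7. The other 6 lay far lower, with fbp1 at 5.54, ght4 at 5.06, inv1 at 3.17, ght3 at 2.45, ght1 at 2.13 and ght6 at 0.204 CPM per kb. fbp1 was above 5.95% of the protein-coding genes tested, and the other 5 were above fewer. In WT the levels per kb of ght8, ght2 and ght5 were apart in every library. From fbp1 to ght1, neighbours in the order did not differ beyond the spread of their 2 libraries. Lengths came from the annotation of another build (ASM294v3). With coding length alone ght4 (11.5 CPM per coding kb) stood above fbp1 (9.07), and ght1 (3.70) above ght3 (2.72).

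**Figure D1:**
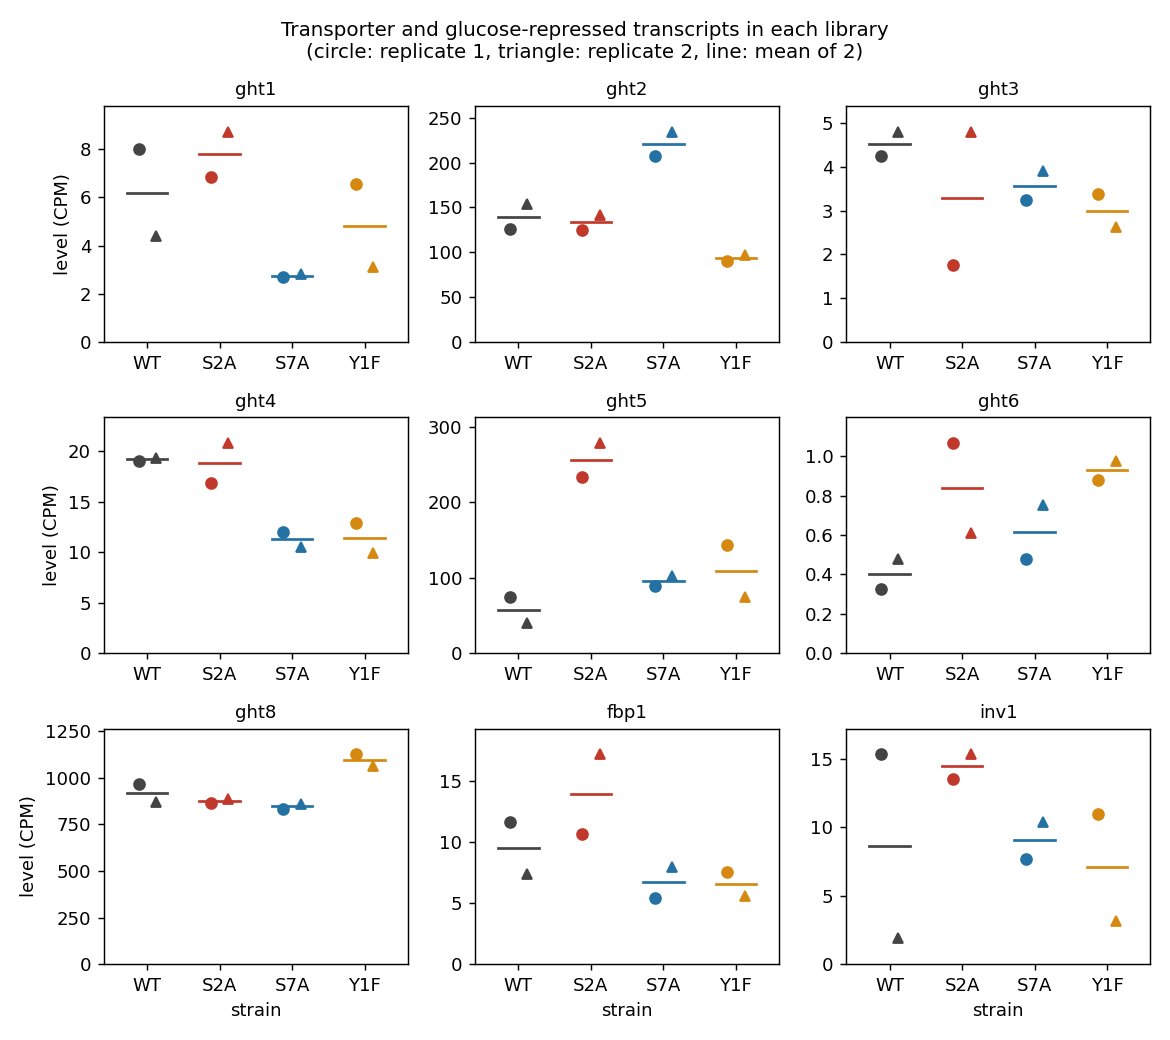
Level of each of the 9 genes (vertical axis, CPM, linear from 0) in the 8 libraries by strain (horizontal axis), with circles for replicate 1, triangles for replicate 2 and a line at the mean. The S2A libraries stood apart for ght5 (233 and 279 CPM), S7A was high for ght2 (207 and 235 CPM), and the 2 WT libraries of inv1 lay far apart (15.4 and 1.92 CPM).

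In the S2A strain 1 of the 9 genes, ght5, was called, and it rose 4.46-fold. ght5 encodes a high-affinity glucose transporter that fission yeast needs for growth on low glucose. The count of 1 of 9 stands beside 55.4% of all genes called in that comparison (28.8% higher and 26.6% lower), and the 9 had a median change of 0.31 against 0.01 over all genes. The WT libraries had 74.2 and 40.2 CPM of ght5 and the S2A libraries 233 and 279. S7A had 88.7 and 103 CPM and Y1F 144 and 74.2. Both S2A libraries were above all 6 others, and the lower S2A library was 3.14 times the higher WT library. The change in S2A was 2.16 ± 0.268 (adjusted p = 2.57e-05), and it ran from 1.78 to 2.67 when 1 of the 4 libraries was left out. The count of called genes was 3 without WT replicate 1, 2 without S2A replicate 1 and 3 without S2A replicate 2.

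The other 8 genes were not called in S2A. fbp1, which encodes fructose-1,6-bisphosphatase, the gluconeogenic enzyme most used to study glucose repression in this yeast, was at 11.6 and 7.35 CPM in WT and at 10.6 and 17.2 in S2A (0.52 ± 0.258, adjusted p = 0.101). The strains overlapped, and the value reached 0.90 (adjusted p = 0.0273) with WT replicate 1 dropped and 0.86 (adjusted p = 0.0214) with S2A replicate 1 dropped. inv1, which encodes the secreted invertase that splits sucrose, was at 15.4 and 1.92 CPM in WT and at 13.6 and 15.4 in S2A (0.72 ± 0.566, adjusted p = 0.301). That difference rested on which WT library was used: dropping WT replicate 1 gave 2.90 (adjusted p = 0.00147), and dropping WT replicate 2 gave -0.10 (adjusted p = 0.844).

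Of the other transporters in S2A, ght8 was at 963 and 870.2 CPM in WT and at 866 and 886 in S2A, a difference of -0.07 ± 0.058 (adjusted p = 0.350). ght2, whose product transports glucose when made in budding yeast, was at 126 and 153 CPM in WT and at 125 and 142 in S2A (-0.07 ± 0.089, adjusted p = 0.552). ght4 was at 19.1 and 19.4 against 16.9 and 20.8 CPM (-0.04 ± 0.132, adjusted p = 0.820), and the libraries of the strains overlapped for all 3 genes. They also overlapped for ght1, at 7.99 and 4.40 CPM in WT and 6.86 and 8.73 in S2A (0.31 ± 0.301, adjusted p = 0.401).

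In the S7A strain 4 of the 9 genes were called, 2 higher (ght2 and ght5) and 2 lower (ght1 and ght4), beside 47.4% of all genes (23.1% higher and 24.3% lower). The count was 2 without S7A replicate 1 or 2. The median of the 9 was -0.12 against -0.01 over all genes. ght2 rose from 126 and 153 CPM in WT to 207 and 235 in S7A (0.67 ± 0.087, adjusted p = 7.14e-05), and both S7A libraries were the highest of all 8. ght4 fell from 19.1 and 19.4 CPM to 11.98 and 10.5 (-0.78 ± 0.139, adjusted p = 0.000662), with no overlap. These 2 calls held when any 1 of the 4 libraries was left out, with values of 0.54 to 0.81 for ght2 and -0.87 to -0.68 for ght4.

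The other 2 calls in S7A were less stable. ght1, whose product also transports glucose when made in budding yeast, was at 7.99 and 4.40 CPM in WT and at 2.70 and 2.80 in S7A (-1.17 ± 0.346, adjusted p = 0.0147). Both S7A libraries were below both WT libraries, and the call was lost without WT replicate 1 (-0.67, adjusted p = 0.197), S7A replicate 1 (adjusted p = 0.0557) or S7A replicate 2 (adjusted p = 0.0635). ght5 changed by 0.74 ± 0.276 (adjusted p = 0.0423). It was not called with DESeq2 (0.75, adjusted p = 0.215), without WT replicate 2 (0.37, adjusted p = 0.308), or without S7A replicate 1 or 2 (adjusted p = 0.0640 and 0.173), and it was 1.26 without WT replicate 1.

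ght8, fbp1 and inv1 were not called in S7A. ght8 stood at 830 and 860.3 CPM (-0.12 ± 0.058, adjusted p = 0.115; -0.19, adjusted p = 0.0161, without WT replicate 2). fbp1 was at 5.45 and 7.95 CPM (-0.48 ± 0.277, adjusted p = 0.176), and inv1 at 7.73 and 10.4 CPM lay between the 2 WT libraries (0.07 ± 0.590, adjusted p = 0.935). Without WT replicate 1 the inv1 value was 2.26 (adjusted p = 0.0123), and without WT replicate 2 it was -0.74 (adjusted p = 0.151).

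In the Y1F strain 4 of the 9 genes were called, 2 higher (ght5 and ght8) and 2 lower (ght2 and ght4), beside 35.0% of all genes (17.6% higher and 17.4% lower). The median of the 9 was -0.45 against 0.01 over all genes. ght2 fell from 126 and 153 CPM in WT to 89.99 and 96.6 in Y1F (-0.58 ± 0.091, adjusted p = 0.000476), so it moved down in Y1F and up in S7A. ght4 fell from 19.1 and 19.4 CPM to 12.9 and 9.94 (-0.78 ± 0.141, adjusted p = 0.00120). ght8 rose from 963 and 870.2 CPM to 1127 and 1063, a modest 1.19-fold (0.26 ± 0.058, adjusted p = 0.00476; 0.21, adjusted p = 0.0537, without Y1F replicate 1). The libraries of Y1F and WT did not overlap for ght2, ght4 and ght8, and barely so for ght5. They were also apart for ght3 and ght6, which were not called. How many of all genes were apart in this way was not counted.

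ght5 was called in Y1F with less support from the libraries. It stood at 144 and 74.2 CPM in Y1F against 74.2 and 40.2 in WT (0.90 ± 0.277, adjusted p = 0.0252). The lower Y1F library and the higher WT library were level. The call was lost with DESeq2 (0.92, adjusted p = 0.142), without WT replicate 2 (0.52, adjusted p = 0.178) and without Y1F replicate 1 (0.37, adjusted p = 0.251). Without WT replicate 1 or Y1F replicate 2 the value was 1.40 or 1.32.

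fbp1 was at 7.57 and 5.55 CPM in Y1F, overlapping WT (-0.57 ± 0.285, adjusted p = 0.140; -0.86, adjusted p = 0.0465, without WT replicate 2). inv1 was at 11.02 and 3.19 CPM (-0.44 ± 0.635, adjusted p = 0.635). Dropping WT replicate 2 gave -1.27 (adjusted p = 0.0384), whereas dropping WT replicate 1 gave 1.73 (adjusted p = 0.0754). ght1 was at 6.54 and 3.11 CPM in Y1F (-0.45 ± 0.326, adjusted p = 0.306, called without Y1F replicate 1 at an adjusted p = 0.0394).

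**Figure D2:**
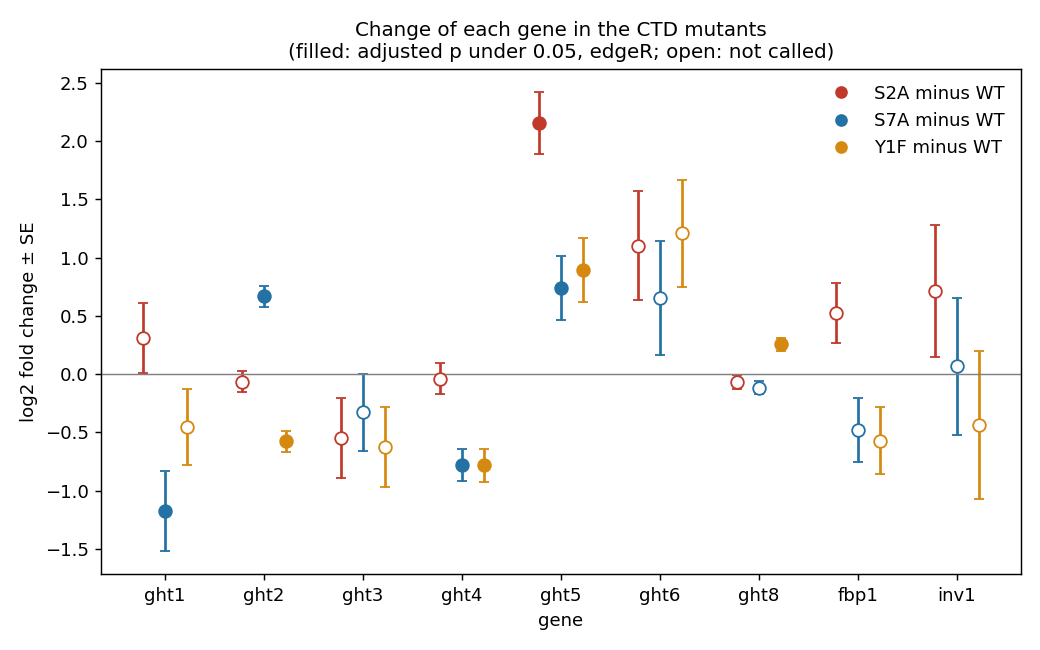
Log2 fold change ± SE (vertical axis) of each gene (horizontal axis) in S2A, S7A and Y1F against WT, filled where the adjusted p was under 0.05. ght5 in S2A (2.16) was the largest change among the called ones, ght2 was called in opposite directions in S7A (0.67) and Y1F (-0.58), and inv1 had the widest bars, with an SE of 0.566 to 0.635.

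The scarcest transporters gave few reads. ght3, encoding a transporter linked to gluconate uptake, had 4.26 and 4.81 CPM in the WT libraries and 1.75 and 4.81 in those of S2A, then 3.23 and 3.91 for S7A and 3.38 and 2.62 for Y1F. It was not called in any mutant (adjusted p = 0.196, 0.439 and 0.179), but its S2A libraries differed 2.74-fold, and without S2A replicate 2 its value was -1.37 (adjusted p = 0.00255). ght6, encoding a transporter that prefers fructose when made in budding yeast, had 12 counts over both WT libraries, 31 in S2A, 25 in S7A and 34 in Y1F. The WT libraries had 0.327 and 0.481 CPM of it, S2A had 1.07 and 0.609, S7A had 0.479 and 0.755, and Y1F had 0.881 and 0.976. The S2A and Y1F libraries lay above both WT libraries, with changes of 1.10 ± 0.466 (adjusted p = 0.0613) and 1.21 ± 0.458 (adjusted p = 0.0581) that were not called. In S2A the ght6 value was 1.39 without S2A replicate 2, which leaves only the S2A library with more of it. Its passing the filter through mutant libraries alone also limits what these rises can show.

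The mutants were also compared with each other, which tests the differences between their responses directly. Between S2A and S7A 5 of the 9 genes were called, 4 higher in S2A and 1 lower, beside 53.1% of all genes (28.3% higher and 24.9% lower). ght5 (1.42 ± 0.249, adjusted p = 0.000411), ght1 (1.48 ± 0.329, adjusted p = 0.00214), ght4 (0.74 ± 0.137, adjusted p = 0.000591) and fbp1 (1.00 ± 0.259, adjusted p = 0.00575) were higher in S2A. ght2 was lower in S2A (-0.73 ± 0.087, adjusted p = 1.58e-05). The fbp1 call was lost without S2A replicate 2 (0.64, adjusted p = 0.0822) or S7A replicate 1 (0.78, adjusted p = 0.0511).

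Between S2A and Y1F 5 of the 9 genes were called, 4 higher in S2A and 1 lower, beside 48.9% of all genes (25.1% higher and 23.7% lower). ght5 (1.26 ± 0.250, adjusted p = 0.00118), ght2 (0.51 ± 0.091, adjusted p = 0.000562), ght4 (0.74 ± 0.139, adjusted p = 0.000800) and fbp1 (1.10 ± 0.267, adjusted p = 0.00468) were higher in S2A, and ght8 was lower (-0.32 ± 0.058, adjusted p = 0.000564). The fbp1 call was again lost without S2A replicate 2 (0.74, adjusted p = 0.0574), and also without Y1F replicate 2 (0.85, adjusted p = 0.0642). Both fbp1 comparisons use the same S2A libraries, and fbp1 differed from WT in none of the 3 mutants at the threshold.

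Between Y1F and S7A 2 of the 9 genes were called, beside 48.7% of all genes (25.7% higher and 23.0% lower). ght2 was lower in Y1F (-1.24 ± 0.089, adjusted p = 2.99e-07), which made it the gene of the 9 with the clearest difference between these strains. ght8 was higher in Y1F (0.37 ± 0.058, adjusted p = 0.000199). ght4 was nearly equal in them, at 11.98 and 10.5 CPM in S7A and 12.9 and 9.94 in Y1F, a difference of -0.00 ± 0.146 (adjusted p = 0.992). Without Y1F replicate 2, 4 genes were called, with ght1 (1.25, adjusted p = 0.0119) and ght5 (0.58, adjusted p = 0.0483) added.

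The makeup of the transporter counts differed between the strains. Summed over the 7 transporters, the level was 1144 ± 72.0 CPM for WT and 1296 ± 64.2 for S2A, with 1180.2 ± 49.95 for S7A and 1318 ± 94.4 for Y1F (SD, n = 2). Both S2A sums (1251 and 1342 CPM) and both Y1F sums (1384 and 1251 CPM) lay above both WT sums (1195 and 1093 CPM), which was not tested. ght8 held 80.1 ± 0.688% of the summed counts of WT and 67.6 ± 2.28% of those of S2A, against 71.7 ± 1.23% for S7A and 83.2 ± 2.55% for Y1F. The ght5 share was 4.94 ± 1.79% in WT and 19.7 ± 1.54% in S2A, and in S7A and Y1F it was 8.09 ± 0.489% and 8.16 ± 3.15%. ght2 held 12.3 ± 2.47% for WT, 10.3 ± 0.396% for S2A, 18.7 ± 0.835% for S7A and 7.11 ± 0.867% for Y1F. These are shares of counts, given without a test, and a share falls when another member rises.

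**Figure D3:**
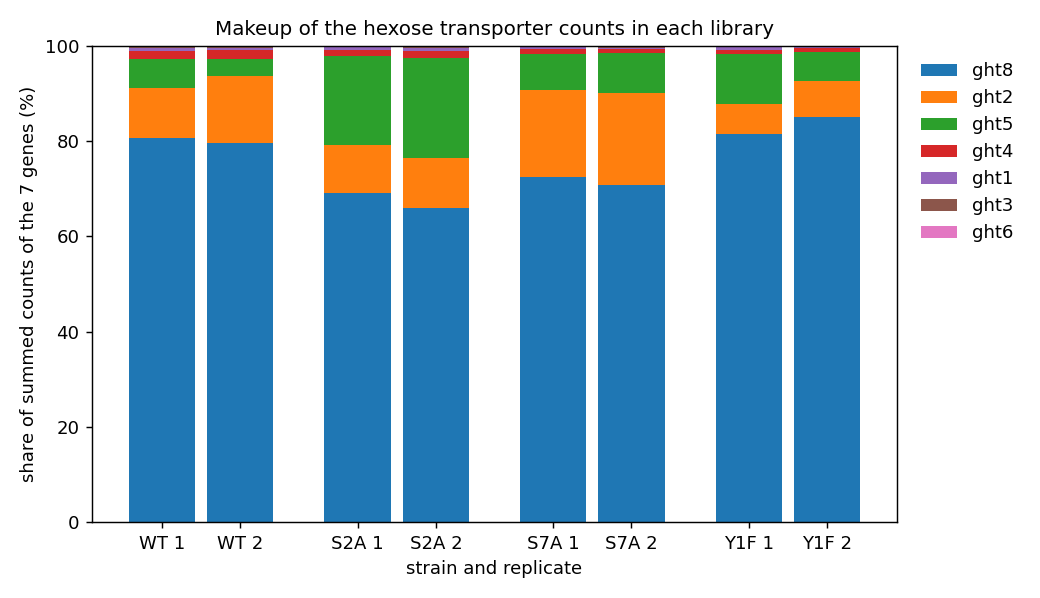
Share of the summed counts of the 7 transporter genes held by each gene (stacked bars, %, vertical axis) in each of the 8 libraries (horizontal axis). ght8 held the most in every library, the ght5 band was widest in S2A (19.7% on average) and the ght2 band in S7A (18.7%).

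The 2 libraries of a strain differed more for several of these genes than for most genes. Among genes of at least 5 CPM the higher WT library was 1.06 times the lower for the median gene, and the 99th percentile was 1.53. inv1 differed 8.003-fold in WT, the widest of the 5279 genes compared there, and 3.45-fold in Y1F, where 5 of 5277 genes, inv1 included, differed as much or more. ght5 differed 1.85-fold and ght1 1.82-fold in WT, with replicate 1 higher each time, and 1.94-fold and 2.10-fold in Y1F, again with replicate 1 higher. fbp1 was 1.58-fold higher in replicate 1 of WT and 1.36-fold higher in replicate 1 of Y1F. In S2A and S7A the order was the other way, with replicate 2 higher for fbp1 (1.61-fold and 1.46-fold), ght5 (1.20-fold and 1.16-fold), inv1 (1.13-fold and 1.35-fold) and ght1 (1.27-fold and 1.04-fold). The ght1 difference in S7A was that of the median gene there (1.04-fold). In each of S2A and S7A only 1 of the 9 genes was higher in replicate 1, beside 50.8% and 46.2% of all genes. ght8 had the same order as these 4 genes in every strain, by smaller amounts in WT and Y1F.

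A pair of genes outside the 9, agl1 and gld1, also differed between the libraries of a strain, and they were chosen for mention after their values were seen. agl1, which encodes a secreted alpha-glucosidase, had 31.0 and 12.7 CPM in the WT libraries, S2A had 17.9 and 32.1, S7A had 12.7 and 13.6, and Y1F had 26.0 and 12.5. gld1, the glycerol dehydrogenase gene, had 21.0 and 12.98 CPM in WT, while S2A had 12.7 and 22.9, S7A had 14.9 and 18.0, and Y1F had 20.5 and 11.4. Neither was called in any mutant (agl1 adjusted p = 0.741, 0.143 and 0.638; gld1 adjusted p = 0.935, 0.925 and 0.733). Of the other 7 genes in the lists that hold agl1 and gld1, dak2 differed 1.37-fold in WT and 1.21-fold in Y1F with replicate 1 higher, and the other 6 differed by 1.02-fold to 1.13-fold in WT and 1.03-fold to 1.18-fold in Y1F. The part of agl1 and gld1 in the strain differences of ght1, ght5, fbp1 and inv1 was not tested. ght2 and ght8 differed less, by at most 1.22-fold and 1.11-fold between the libraries of any strain.

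**Figure D4:**
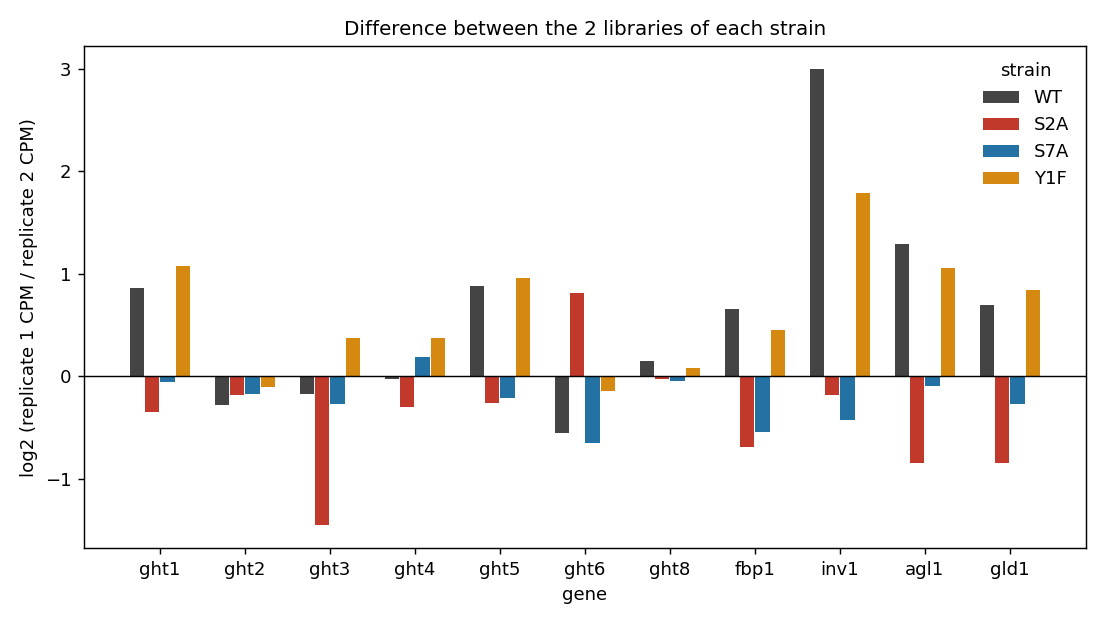
Log2 ratio of replicate 1 to replicate 2 (vertical axis, CPM over CPM) for the 9 genes and for agl1 and gld1 (horizontal axis), with 1 bar per strain. The bars of WT and Y1F point up and those of S2A and S7A down for ght1, ght5, ght8, fbp1, inv1, agl1 and gld1. Those of ght8 are short, and inv1 in WT is the tallest (8.003-fold).

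Across the 8 libraries, which share strains and are described without a test, ght1 and fbp1 had a Pearson r of 0.84, ght1 and ght4 of 0.79, ght4 and fbp1 of 0.76, and ght5 and inv1 of 0.755. ght2 and ght8 went opposite ways (r = -0.85). Among 5272 other genes of at least 5 CPM, the closest in pattern to ght5 over the 8 libraries was SPNCRNA.1434 (r = 0.97), and the closest to ght1 was adh8 (r = 0.98). pdr1 (r = 0.99) and crd1 (r = 0.98) were closest to ght2, spb4 (r = 0.98) and SPNCRNA.1626 (r = 0.98) to ght8, and SPNCRNA.954 (r = 0.97) and trp1 (r = 0.96) to ght4. SPNCRNA.1626 stood at 509 and 463 CPM in Y1F and at 302 or less in the other 6 libraries. For fbp1 and inv1 the closest were ppk16 (r = 0.94) and plb1 (r = 0.91), the gene of a phospholipase. ght3 had no gene above kae1 (r = 0.89), and ght6 was closest to SPNCRNA.1476 (r = 0.96).

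Several of the genes lie close together on chromosome III. In the ASM294v3 annotation, used for order only, ght6 and ght5 were on the same strand with 2 measured genes between them, ght8 followed after 7 more, and ght1 after 1 more. The calls differed among the transporters of this stretch, and differences between the genes were not tested. In S2A ght5 was called higher, and ght6, ght8 and ght1 were not called. In S7A ght5 was called higher and ght1 lower, both less stable calls, and ght6 and ght8 were not called. In Y1F ght5 and ght8 were called higher, and ght6 and ght1 were not called.

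Noncoding RNAs are annotated over or beside most of the 9, and the study's title names antisense transcription. The libraries were strand-specific, but no source used here states how strand was handled in counting. Reads from a gene and from an RNA opposite it may therefore not have been kept apart. Of 7 measured RNAs that overlap a member, 6 passed the filter, SPNCRNA.298 (over ght4) having 0 counts in every library. In S2A 2 of these 6 were higher and 0 lower, in S7A 1 was higher and 3 lower, and in Y1F 0 were higher and 2 lower, with medians of 0.47, -0.26 and -0.32 against medians of 0.01, -0.01 and 0.01 over all genes tested, of which 55.4%, 47.4% and 35.0% were called. With DESeq2 the S7A counts were 0 higher and 3 lower, and the Y1F counts 0 and 1. RNAs over ght2, ght3 and ght8 that are in the annotation but not in the table were not analysed here.

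SPNCRNA.1324, which lies opposite the whole of fbp1, was at 29.7 and 31.7 CPM in WT and at 28.7 and 33.6 in S2A (0.02 ± 0.091, adjusted p = 0.892). It fell to 18.0 and 20.5 CPM in S7A (-0.66 ± 0.096, adjusted p = 0.000151) and stood at 27.1 and 27.6 in Y1F (-0.16 ± 0.093, adjusted p = 0.193). Its S7A libraries were the lowest of the 8. fbp1-ot3, the nearest measured RNA upstream of fbp1 and on its strand, was at 3.67 and 3.43 CPM in WT and at 5.11 and 5.35 in S2A (0.55 ± 0.182, adjusted p = 0.0206). That call was lost with DESeq2 (adjusted p = 0.120) and without any 1 of the 4 libraries (adjusted p from 0.0519 to 0.0833).

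SPNCRNA.1118 lies opposite the whole of ght6 and was far more abundant than it, at 43.0 and 35.4 CPM in WT and 41.3 and 42.0 in S2A (0.09 ± 0.082, adjusted p = 0.396). It stood at 30.5 and 31.5 CPM in S7A (-0.34 ± 0.084, adjusted p = 0.00584) and at 33.1 and 31.9 in Y1F (-0.27 ± 0.085, adjusted p = 0.0257), both below both WT libraries. Without WT replicate 1 neither was called (-0.18, adjusted p = 0.0898, and -0.13, adjusted p = 0.256), and the S2A value was then 0.24 (adjusted p = 0.0238). Without either Y1F library, or with DESeq2, the Y1F call was lost too (adjusted p = 0.0559, 0.150 and 0.0606).

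Over ght4 the 2 opposite RNAs differed. SPNCRNA.1319 rose in S2A from 9.49 and 8.38 to 13.8 and 14.7 CPM (0.67 ± 0.149, adjusted p = 0.00235), where ght4 itself was not called. SPNCRNA.1318 was at 5.89 and 3.71 CPM in WT, 2.28 and 2.62 in S7A (-0.96 ± 0.314, adjusted p = 0.0238) and 2.79 and 1.33 in Y1F (-1.33 ± 0.336, adjusted p = 0.00923), lower in both strains in which ght4 was lower. Without WT replicate 1 its values were -0.58 (adjusted p = 0.238) and -0.96 (adjusted p = 0.0915), and the S7A call was also lost without either S7A library (adjusted p = 0.0973 and 0.0696), the Y1F call without Y1F replicate 2 (-0.79, adjusted p = 0.146). SPNCRNA.1121, opposite a part of ght1, stood between 0.367 and 1.02 CPM and was not called in any mutant.

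SPNCRNA.1224 overlaps 2.5% of inv1 on the same strand. It rose in S2A from 0.262 and 0.275 to 1.85 and 2.30 CPM (2.90 ± 0.385, adjusted p = 4.60e-05). Each WT library held 4 counts of it, so it passed the filter on low counts only through libraries of mutant strains. Its p-values do not allow for that selection. In S7A it was at 0.719 and 0.622 CPM (1.29 ± 0.480, adjusted p = 0.0428), a call lost with DESeq2 (adjusted p = 0.176) and without any 1 of the 4 libraries, and in Y1F at 0.661 and 0.488 (adjusted p = 0.144).

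**Figure D5:**
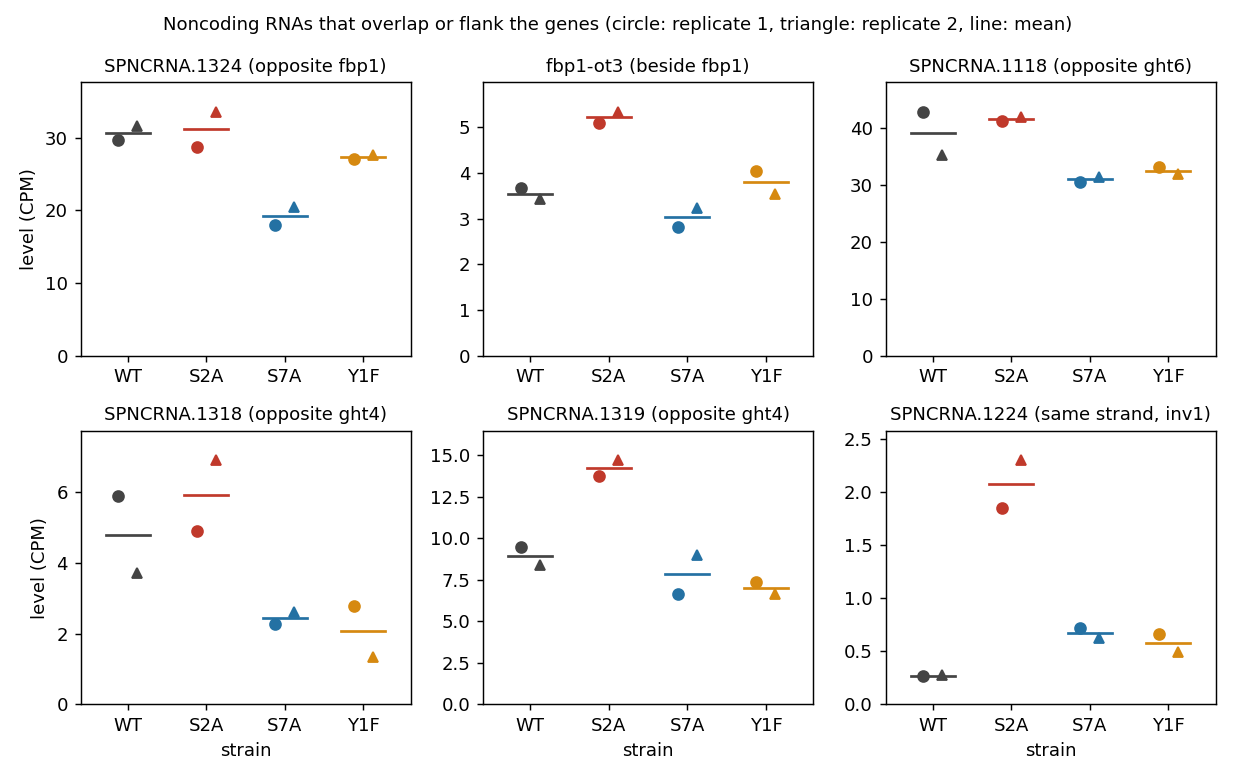
Levels (CPM, linear from 0) of 6 noncoding RNAs that lie over or beside fbp1, ght6, ght4 and inv1 in the 8 libraries by strain, with circles for replicate 1, triangles for replicate 2 and a line at the mean. SPNCRNA.1224 and SPNCRNA.1319 were highest in S2A, and SPNCRNA.1324 was lowest in S7A (18.0 and 20.5 CPM).

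Next to the members, mal1 (maltase), just upstream of ght4 on the same strand, was lower in all 3 mutants. It was at 35.8 and 36.5 CPM in WT, 22.3 and 23.3 in S2A (-0.67 ± 0.075, adjusted p = 1.13e-05), 19.8 and 20.04 in S7A (-0.86 ± 0.075, adjusted p = 2.98e-06) and 21.6 and 23.5 in Y1F (-0.67 ± 0.075, adjusted p = 3.10e-05). ght4 was called lower in S7A and Y1F, and its S2A libraries overlapped WT. frp1, a ferric reductase gene on the other side of ght4, was at 13.03 and 21.7 CPM in WT, 25.8 and 25.9 in S2A (0.58 ± 0.209, adjusted p = 0.0325) and 9.88 and 9.37 in S7A (-0.85 ± 0.236, adjusted p = 0.0107). Both frp1 calls were unstable. With DESeq2 the one in S2A was lost (0.57, adjusted p = 0.174). Dropping WT replicate 1 (0.26) or either S2A library (0.59 and 0.57) also removed it. The frp1 call in S7A was lost on dropping replicate 2 of WT (-0.44) or of S7A (-0.81). SPCC1235.18, just upstream of ght5 on its strand, was at 1.77 and 1.10 CPM in WT and rose to 4.57 and 5.75 in S2A (1.82 ± 0.322, adjusted p = 0.000432), standing at 1.497 and 1.73 in S7A and 2.57 and 1.20 in Y1F (adjusted p = 0.732 and 0.616). Like ght5 it was higher in replicate 1 of WT and Y1F.

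Neighbours are named only where called against WT. Of 12 tested nearest neighbours, 6 were higher and 3 lower in S2A, 2 and 4 in S7A, and 0 and 2 in Y1F. Over all genes 55.4%, 47.4% and 35.0% were called in these comparisons. tfg2, a TFIIF subunit gene downstream of fbp1, rose in S2A from 77.2 and 79.4 to 109.1 and 108.8 CPM (0.48 ± 0.052, adjusted p = 8.65e-06). shu1, a heme uptake gene beside ght3, rose in S7A from 0.393 and 0.343 to 2.99 and 2.31 CPM (2.80 ± 0.354, adjusted p = 5.46e-05). The WT libraries held only 6 and 5 counts of shu1, against 50 and 52 in S7A, so the size of its change rests on few reads. It passed the filter only through libraries of mutant strains, a selection its p-values do not allow for. A further call of shu1, higher in S2A, was lost with RLE scaling (1.13, adjusted p = 0.0508) and with DESeq2 (adjusted p = 0.186). SPCC1529.01, beside ght1, was lower in S2A, S7A and Y1F (-0.73, -0.43 and -0.41; adjusted p = 2.03e-05, 0.00132 and 0.00297). SPCC1235.17, beside ght6, fell in S2A and S7A (-0.63 and -0.58; adjusted p = 0.00163 and 0.00313), and dga1, beside ght5, rose in both by 0.19 and 0.22 (adjusted p = 0.00409 and 0.00195).

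Other genes of sugar use were taken as lists. Of 4 genes of sugar and gluconate transport, S2A had 1 higher and 1 lower, S7A 1 higher, and Y1F 1 lower, beside 55.4%, 47.4% and 35.0% of all genes called in these comparisons. gti1, an inducer of gluconate transport, rose in S2A from 17.2 and 17.2 to 31.3 and 31.1 CPM (0.86 ± 0.085, adjusted p = 3.82e-06), and idn1 (gluconokinase) fell there (-0.53 ± 0.052, adjusted p = 3.87e-06) and rose in S7A (0.44 ± 0.050, adjusted p = 2.30e-05). sut1, a sucrose and maltose transporter gene, was lower in Y1F (-0.44 ± 0.0999, adjusted p = 0.00499). ght7, the remaining member of the transporter family, stood between 0.779 and 1.69 CPM and was not called in S2A, S7A or Y1F (adjusted p = 0.479, 0.441 and 0.953).

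Of 4 genes of sugar splitting and phosphorylation, 2 were lower in S2A, 1 was higher and 1 lower in S7A, and 3 were lower in Y1F. Over all genes 26.6% were lower in S2A, 23.1% higher and 24.3% lower in S7A, and 17.4% lower in Y1F. The hexokinase gene hxk1, at 625 and 615 CPM in WT, was lower in S2A (-0.25 ± 0.047, adjusted p = 0.000820) and Y1F (-0.22 ± 0.047, adjusted p = 0.00421; 0.0607 without Y1F replicate 2) and higher in S7A (0.31 ± 0.047, adjusted p = 0.000227). hxk2 was lower in Y1F (-0.28 ± 0.058, adjusted p = 0.00269). Of 5 other glucose-repressed metabolic genes, S2A had 1 higher and 1 lower, S7A 3 higher and 1 lower, and Y1F 2 higher and 2 lower, beside 55.4%, 47.4% and 35.0% of all genes called either way. Within this list atd1, an aldehyde dehydrogenase gene, rose in all 3 mutants (0.34, 0.27 and 0.46; adjusted p = 0.00160, 0.00842 and 0.000485), and dak2, a dihydroxyacetone kinase gene, fell in all 3 (-0.76, -1.13 and -0.85; adjusted p = 0.000441, 3.89e-05 and 0.000461). The others did not move alike: gut2 was called higher in S7A and lower in Y1F, dak1 higher in S7A and Y1F, and gld1 in none. The gut2 call in Y1F was lost with DESeq2 (-0.31, adjusted p = 0.0842). The atd1 call in S7A was lost without WT replicate 1 or S7A replicate 1 (adjusted p = 0.0652 and 0.0834).

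Genes that sense glucose and relay it moved by small amounts. Of 11 genes of the cAMP and protein kinase A pathway, 1 was higher and 3 lower in S2A, 4 higher and 3 lower in S7A, and 1 higher and 2 lower in Y1F, with medians of 0.06, 0.02 and 0.07. The shares over all genes were 28.8% higher and 26.6% lower in S2A, 23.1% and 24.3% in S7A, and 17.6% and 17.4% in Y1F. git3, the glucose-sensing receptor gene, was lower in S2A, S7A and Y1F (-0.27, -0.41 and -0.40; adjusted p = 0.00666, 0.000563 and 0.00115). Its call in S2A was lost with either replicate 2 dropped, that of WT (adjusted p = 0.0717) or that of S2A itself (adjusted p = 0.0514). gpa2, its G protein alpha subunit gene, fell in Y1F (-0.43 ± 0.055, adjusted p = 9.37e-05), and cgs1, the regulatory subunit gene of protein kinase A, fell in S2A (-0.33 ± 0.061, adjusted p = 0.000538).

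Of 11 genes of transcription factors and corepressors of glucose-repressed genes, 10 passed the filter, rsv1 with 1 to 11 counts per library not being among them. In S7A 8 of the 10 were higher and 1 lower (median 0.26), where 23.1% of all genes were called higher and 24.3% lower. With DESeq2 the S7A counts were 6 and 1. They included scr1, the repressor gene, at 42.0 and 43.6 CPM in WT and 56.8 and 54.8 in S7A (0.38 ± 0.068, adjusted p = 0.000636), and rsv2, at 16.9 and 18.4 CPM in WT and 27.6 and 26.2 in S7A (0.61 ± 0.106, adjusted p = 0.000574). rst2, the gene of an activator of fbp1, was at 0.25 ± 0.057 (adjusted p = 0.00380). In S2A 2 were higher and 1 lower (median 0.02), led by atf1, a stress-activated factor gene that rose from 106 and 145 to 207 and 190.0 CPM (0.66 ± 0.125, adjusted p = 0.000743), and in Y1F 2 were higher and 0 lower (median -0.02; with DESeq2 0 and 0). With scaling on protein-coding genes the S2A counts were 3 and 0 and the Y1F counts 1 and 1. Of 8 genes of AMP-activated and stress kinases, 2 were higher and 3 lower in S2A, 3 and 3 in S7A, and 1 and 1 in Y1F, with medians of 0.05, 0.03 and -0.01, beside 55.4%, 47.4% and 35.0% of all genes called. With DESeq2 the S7A counts were 3 and 1 and the Y1F counts 0 and 0. ssp1, the gene of a kinase upstream of AMP-activated kinase, was among them at 0.26 ± 0.042 in S2A (adjusted p = 0.000203).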

How the data were processed

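Whole-number read counts per gene ID and library were deposited by the authors, from stranded, ribosomal RNA-depleted read pairs of 100 nt per the labels' protocols. The build was ASM294v2, and the tools were HISAT2, StringTie, featureCounts, deepTools and DESeq2, per the submitters' processing notes, without versions, strand setting or the treatment of reads that match several genes, so reads shared between similar transporter genes are a possible source of error. Of 7000 IDs, 6797 matched the annotation at hand (ASM294v3), which gave names, lengths and gene order only.

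The tests were run with edgeR 4.0.16 under R 4.3.3: filterByExpr (minimum count 10, minimum total 15), TMM scaling and a quasi-likelihood fit of all 8 libraries with 1 mean per strain and 4 residual degrees of freedom (common dispersion 0.00197). Each SE was the size of the change over the root of its F statistic. DESeq2 1.42.0 was an alternative, with RLE scaling, scaling on protein-coding genes, no filter, a filter of 5 CPM in 2 libraries, the compared strains only, a replicate block, and leaving out each library. Replicates differed beyond sampling noise (chi-square per gene from 4.93 to 11.0). Tables and figures used Python 3.11.15, pandas 2.3.3 and matplotlib 3.10.9.

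The 9 genes and the lists were chosen with earlier results of these data known. Named genes were the 9, rpb1, ght7, up to 3 called genes per list and mutant with the largest change, RNAs overlapping a member, called nearest neighbours, and the 2 genes of at least 5 CPM closest in pattern to each member. agl1 and gld1 fall outside this rule.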

Additional observations from a re-analysis of the deposited data

How the results depend on the processing

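No call of a member or named gene reversed its direction under any setting tried. Over the 9 genes, 6 comparisons and all settings, 528 of 589 recomputed changes kept their direction and side of the threshold, 24 changed sign with neither value called, 15 lost a call and 22 gained one. The count of 1 gene called in S2A against WT was 3 without WT replicate 1, 2 without S2A replicate 1 and 3 without S2A replicate 2, so it ran from 1 to 3. In S7A against WT it ran from 2 to 4 (2 without S7A replicate 1 or 2), and in Y1F against S7A from 2 to 4 (4 without Y1F replicate 2). Under every other setting these 3 counts stayed within 1.5 times. Over the 42 tested list genes, 18, 29 and 15 were called in S2A, S7A and Y1F against WT, where 55.4%, 47.4% and 35.0% of all genes were called, and leaving out a library gave 12 to 18, 22 to 29 and 10 to 17. For the pairs of mutants those counts were 21 (S2A and S7A), 20 (S2A and Y1F) and 23 (Y1F and S7A), with 14 to 18, 14 to 18 and 20 to 21. These counts over all 42 genes stayed within 1.5 times under every setting tried, while those of single lists did not: with DESeq2, 0 of the 8 kinase genes and 0 of the 10 transcription factor genes were called in Y1F.

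The replicate number as a block gave 1, 4 and 4 of the 9 genes called in S2A, S7A and Y1F against WT, as without it. Deviations of same-numbered libraries correlated between -0.16 (WT and S2A) and 0.18 (WT and Y1F) across 6243 genes. Such values over all genes cannot tell whether same-numbered libraries were grown or prepared together. With the S2A numbers crossed, a pairing chosen after seeing the data, 1 of the 9 genes was called in S2A and 20 of the list genes. With 2 libraries a strain, an exact two-sided permutation test cannot go below p = 0.333, and ght6 had 5 to 22 counts per library. Whether depth set its missing calls was not tested.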
